A study of Mus musculus with 6 samples.

Results

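Heat shock proteins and their J-domain co-chaperones were examined in the mouse neuroblastoma cell line M1, in libraries labelled shIGF2BP1 and in libraries labelled shNT. The members were all protein-coding genes whose symbols begin with Hspa, Hspb, Hspd, Hspe, Hsph or Hsp90, or with Dnaja, Dnajb or Dnajc and a digit, that had 10 or more counts summed over the 6 libraries. Hspa5, Hsp90b1, Dnajb9 and Dnajc3, which belong to the endoplasmic reticulum stress response, were left out by name. This gave 59 of 43629 mouse gene rows, 23 named Hsp and 36 named Dnaj, and 55 of them had enough counts to enter the test of 13445 genes. The 3 shIGF2BP1 libraries came from cells with an induced short hairpin RNA against Igf2bp1, an RNA-binding protein, and the 3 shNT libraries from cells with a non-targeting hairpin. Both groups carried a hairpin and received doxycycline at 4 to 6 µg/ml for 6 days, and no uninduced cells are among these libraries. The labels name 1 hairpin per group and 1 cell line, and do not say whether replicates were separate cultures, so the p-values cover only the spread seen among the deposited samples, possibly a technical one. Poly-A RNA was sequenced and counted per gene.

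HSP70 proteins hold unfolded segments of other proteins in a cycle driven by ATP. J-domain proteins bring substrates to HSP70 and start ATP hydrolysis, and exchange factors such as the HSP110 proteins release the ADP. HSP90 takes over partly folded clients such as kinases and steroid receptors, small heat shock proteins hold unfolding proteins without ATP, and HSP60 with HSP10 forms the folding chamber of mitochondria. The stress-inducible members are classic targets of the transcription factor HSF1, which binds repeats of the unit GAA and its complement TTC.

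The promoters of the members were read for that unit, since it is the sequence feature by which the inducible chaperones are known. RefSeq promoters of build GRCm38.p6, reaching from 250 bases before to 50 bases after a start, were at hand for 47 of the 59 members. The words searched were GAANNTTC and TTCNNGAA, each a pair of facing units and each its own reverse complement, so that both strands were covered and overlapping words were counted. At least 1 of these words stood in the promoters of 12 of the 47 members (25.5%), against 17.0% of 27025 genes with a promoter. Words of 3 units, GAANNTTC followed by NNGAA or TTCNNGAA followed by NNTTC, stood in 4 members (8.51%), against 0.662% of all genes. A match describes these letters only and does not show that a factor binds there. The windows below, 30 bases long and printed 5′ to 3′ on the strand of the gene with the units and the bases between them in capitals, are shown for the 4 members with a 3-unit word, for the inducible Hspa1a and Hspa1b, and for Dnaja1 and Hspb6, which are described further on:
Hspe1, chr1:55088053-55088082, plus strand: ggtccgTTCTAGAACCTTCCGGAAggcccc
Hspd1, chr1:55088053-55088082, minus strand: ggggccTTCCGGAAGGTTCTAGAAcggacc
Hsph1, chr5:149636279-149636308, minus strand: gctgcagaTTCTGGAAAGTTCtcctcagta
Dnajb6, chr5:29735844-29735873, plus strand: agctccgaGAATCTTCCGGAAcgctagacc
Hspa1a, chr17:34972242-34972271, minus strand: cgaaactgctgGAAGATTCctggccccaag
Hspa1b, chr17:34959324-34959353, minus strand: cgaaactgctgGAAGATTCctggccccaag
Dnaja1, chr4:40722333-40722362, plus strand: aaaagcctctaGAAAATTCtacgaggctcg
Hspb6, chr7:30553170-30553199, plus strand: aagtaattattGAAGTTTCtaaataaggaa

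Hspe1 and Hspd1, the genes of HSP10 and HSP60, lie head to head on chromosome 1, and the first pair of windows is 1 site read from both strands. The Hspe1 promoter is printed whole because it is shared by this pair. It covers chr1:55087898-55088197 on the plus strand, with the repeats in capitals:
Hspe1 promoter: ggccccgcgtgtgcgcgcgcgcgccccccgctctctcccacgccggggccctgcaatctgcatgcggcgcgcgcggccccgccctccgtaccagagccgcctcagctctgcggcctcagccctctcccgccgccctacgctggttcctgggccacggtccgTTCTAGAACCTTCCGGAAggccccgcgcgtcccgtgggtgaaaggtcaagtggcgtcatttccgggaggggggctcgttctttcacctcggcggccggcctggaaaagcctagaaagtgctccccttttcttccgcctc
The windows of Hspa1a and Hspa1b have identical letters, and 296 of the 300 bases of these promoters matched (98.7%).

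None of the 55 tested members passed an adjusted p of 0.05 with edgeR's quasi-likelihood test and Benjamini-Hochberg adjustment over all genes. DESeq2 and limma-voom also called 0 members. The background was low as well, with 0.0223% of all genes called by edgeR (3 genes), 0.61% by DESeq2 and 0.00744% by limma-voom. The smallest adjusted p of a member was 0.562. At an unadjusted p under 0.05 edgeR counted 6 members (10.9%), 2 higher (Hspbp1 and Dnaja1) and 4 lower (Hspb7, Hspb6, Dnajb12 and Dnaja3) in the libraries labelled shIGF2BP1, against 7.16% of all genes tested (3.17% higher, 3.99% lower). The median log2 fold change of the tested members, shIGF2BP1 over shNT, was 0.094, with 34 positive and 21 negative values, against a median of -0.012 over all genes. A change of more than 1.5-fold in either direction was fitted for 4 members (7.27%), against 14.2% of all genes.

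The libraries held 25119655, 34014482 and 27372822 counts in shIGF2BP1 and 30756389, 35373076 and 33385813 counts in shNT. At these unscaled totals 3 counts correspond to 0.0848 to 0.119 CPM, the count of a gene scaled to the size of its library. All other CPM also carry TMM scaling factors. The targeted gene did not separate the labels. Igf2bp1 had 67, 35 and 311 counts in the libraries labelled shIGF2BP1 and 37, 175 and 201 counts in shNT (log2 fold change 0.25 ± 0.79 SE, edgeR adjusted p = 0.966), so directions below refer to the labels. Of 14 sympathetic and neuroblastoma markers 6 could be tested, among them Hand2, and the defining markers Th, Dbh and Chga had 0 counts in each library. These counts alone do not identify the cells as neuroblastoma. Of the markers of other cell types, leukocyte Ptprc and Cd3e, endothelial Cdh5, glial Sox10 and S100b, erythroid Hba-a1 and Hbb-bs, and epithelial Epcam and Krt8 were at or near 0. Others were detected and went both ways between the groups. Cd68, a lysosomal protein of macrophages and other cells, had 3.66, 5.56 and 3.14 CPM in shIGF2BP1 and 7.78, 14.6 and 13.1 CPM in shNT. Fcer1g, the gamma chain of Fc receptors, had 0.381, 0.567 and 0.365 CPM in shIGF2BP1 and 0, 0.176 and 0.0302 CPM in shNT. Neither set overlapped between groups, and the directions were opposite. Endothelial Pecam1 had 54.7, 28.5 and 72.8 CPM in shIGF2BP1 and 29.6, 34.6 and 47.9 CPM in shNT. Kdr, a receptor of endothelial cells, had 1.37, 2.47 and 0.802 CPM in shIGF2BP1 and 9.94, 2.32 and 5.84 CPM in shNT. All 4 fibroblast markers were detected, with Col1a1, a collagen chain, between 228 and 493 CPM (log2 fold change 0.011). Dcn, a matrix proteoglycan, had a log2 fold change of 0.091, and the growth factor receptor Pdgfra one of -0.69. Postn, a matrix protein, had 0.572, 0.312 and 3.32 CPM in shIGF2BP1 and 0, 0.235 and 0.121 CPM in shNT (log2 fold change 3.48). None of these markers passed adjustment over all genes (edgeR adjusted p of 0.403 for Cd68, the smallest among them), and the part of these markers in the results was not tested. In bulk RNA, fewer cells that express a gene and less RNA per cell cannot be told apart.

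Together the members took 1.55%, 1.32% and 1.502% of all counts in the libraries labelled shIGF2BP1, against 1.29%, 1.34% and 0.943% in shNT. The low value belonged to shNT replicate 3. Without Hsp90ab1 and Hspa8 the shares were 0.809%, 0.705% and 0.907% in shIGF2BP1 and 0.698%, 0.746% and 0.726% in shNT, and that library no longer stood out. Hsp90ab1, Hspa9, Hspd1 and Hspa8 made up 71.1%, 69.8% and 71.3% of the members' counts in shIGF2BP1, against 70.7%, 72.9% and 56.0% in shNT. All exon bases annotated to a gene, over all its transcripts, can exceed the length of the RNA that is made. The order of genes and ratios between genes therefore depend on the annotation. Levels between genes were compared as CPM per kilobase of these exon bases. On this scale Hsp90ab1 was highest, at 1612 ± 133 in shIGF2BP1 and 1268 ± 548 in shNT (SD, n = 3 each). Hspd1 followed at 571 ± 168 in shIGF2BP1 and 533 ± 103 in shNT, and Hspa9 had 514 ± 121 in shIGF2BP1 and 478 ± 70.0 in shNT. Next came Hspa8, at 342 ± 84.8 in shIGF2BP1 and 246 ± 154 in shNT. Its place is uncertain, since it was divided by 4301 exon bases and Hspd1 by 2642. Their mean CPM in shIGF2BP1 were close, at 1470 for Hspa8 and 1508 for Hspd1. Hspe1 had 172 ± 4.83 in shIGF2BP1 and 157 ± 39.7 in shNT. The neighbours Hspd1 and Hspa9 in this order did not differ beyond their spread.

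**Figure D1:**
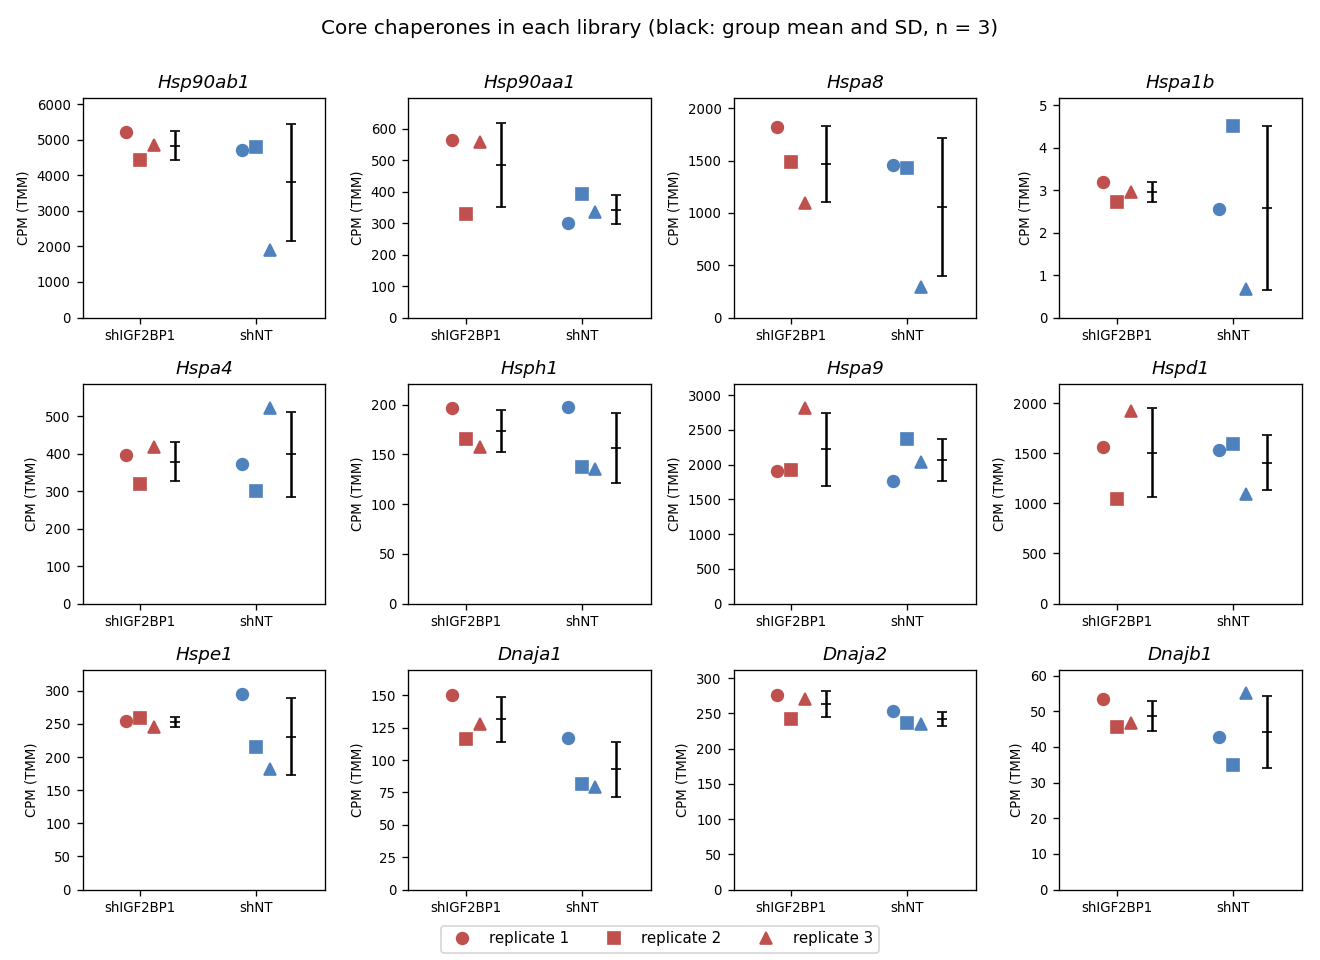
CPM of 12 members of the core chaperone machinery in each library, on linear axes from 0 with shIGF2BP1 left of shNT; points are libraries and black bars give the group mean and SD (n = 3). The groups overlap in all 12 panels, and shNT replicate 3 lies lowest of the 6 libraries in 7 of them (Hsp90ab1, Hspa8, Hspa1b, Hsph1, Hspe1, Dnaja1 and Dnaja2). Replicates 3 and 2 of shNT lie close together for Hsph1 (135.6 and 137.1 CPM), Dnaja1 (79.4 and 81.8 CPM) and Dnaja2 (235.3 and 235.9 CPM). The share of all genes for which shNT replicate 3 is lowest was not counted.

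The HSP90 genes had log2 fold changes of 0.35 and 0.50. Hsp90ab1, the constitutive HSP90 (ENSMUSG00000023944, chromosome 17 from 45567775 to 45573271), had 5231, 4434 and 4842 CPM in the libraries labelled shIGF2BP1 and 4714, 4790 and 1906 CPM in shNT. A single library, shNT replicate 3, was low, and the groups overlapped. The fitted change on the log2 scale was 0.35 ± 0.38 (SE), and its 95% interval ran from -0.48 to 1.18 (edgeR adjusted p = 0.898). Without that library it was 0.024. Hsp90aa1, the stress-inducible HSP90 (ENSMUSG00000021270, chromosome 12 from 110690605 to 110702728), had 566, 329 and 559 CPM in shIGF2BP1 and 300.2, 392 and 336 CPM in shNT. A pair of the shIGF2BP1 libraries lay above all shNT libraries, and replicate 2 lay among them. The means were 485 ± 135 CPM in shIGF2BP1 and 343 ± 46.3 CPM in shNT (SD, n = 3 each). The log2 difference of 0.50 had an interval of -0.076 to 1.08 (edgeR adjusted p = 0.754). Per kilobase, Hsp90ab1 exceeded Hsp90aa1 by 12.1, 17.6 and 11.3 times in shIGF2BP1 and by 20.6, 16.0 and 7.44 times in shNT.

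Among the HSP70 proteins outside mitochondria, 5 of the 6 tested were on the positive side, and the median log2 value was 0.15. Hspa8, the constitutive HSC70 (ENSMUSG00000015656, chromosome 9 from 40800984 to 40810087), had 1826, 1487 and 1097 CPM in the libraries labelled shIGF2BP1 and 1454, 1425 and 290.1 CPM in shNT. Again shNT replicate 3 was far below the other libraries. The log2 difference of 0.48 had an interval of -0.62 to 1.57 (edgeR adjusted p = 0.893), and without that library the difference was 0.028. Few counts were assigned to the stress-inducible HSP70 genes. Hspa1b (ENSMUSG00000090877, chromosome 17 from 34956436 to 34959238) had 3.2, 2.72 and 2.95 CPM in shIGF2BP1 and 2.56, 4.52 and 0.665 CPM in shNT. The shIGF2BP1 values lay inside the shNT range. Without shNT replicate 3, the fold change of 0.20 on the log2 scale (edgeR adjusted p = 0.964) turned to -0.26. The neighbouring copy Hspa1a held 17 counts and Hspa1l, a testis form, 12 counts over the 6 libraries, and neither was tested. The longest reading frames of Hspa1a and Hspa1b matched at 99.4% of their bases, so the split of counts between them is uncertain. Reads that fit both copies may not have been counted, so the level of both genes is uncertain too. Hspa2, a form known from the testis and brain, had 23.7, 20.1 and 16.4 CPM in shIGF2BP1 and 26.4, 11.8 and 7.26 CPM in shNT. These groups overlapped (log2 fold change 0.41, edgeR adjusted p = 0.888), and the log2 value was 1.08 without shNT replicate 1 and 0.075 without shNT replicate 3. The atypical members Hspa12a and Hspa12b had log2 fold changes of 0.11 and 0.094, and Hspa13, a form of microsomes, had -0.050.

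The exchange factors of HSP70 had 3 positive values of 4 and a median of 0.12. Hspbp1, which opens the nucleotide cleft of HSP70 (ENSMUSG00000063802, chromosome 7 from 4660521 to 4685068), had 37.5, 42.3 and 42.0 CPM in the libraries labelled shIGF2BP1 and 34.7, 26.8 and 21.5 CPM in shNT. The groups did not overlap. The means were 40.6 ± 2.72 CPM in shIGF2BP1 and 27.7 ± 6.62 CPM in shNT (SD, n = 3 each), and the log2 difference of 0.55 had an interval of 0.048 to 1.06 and did not pass (edgeR adjusted p = 0.686). Hsph1, the inducible HSP110 with a 3-unit word in its promoter, had 197, 165 and 158 CPM in shIGF2BP1 and 197, 137 and 136 CPM in shNT (log2 fold change 0.15, edgeR adjusted p = 0.93). Hspa4, a constitutive HSP110, had 398, 319 and 418 CPM in shIGF2BP1 and 373, 301 and 522 CPM in shNT (log2 fold change -0.075). Both sets overlapped widely. Hspa4l, a related HSP110, had a log2 fold change of 0.10.

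Of the 5 members named Hspb with a number, grouped here as small heat shock proteins, 4 had negative log2 fold changes. Their median was -0.30, which is the value of Hspb11, against -0.012 over all genes. Hspb7, known from heart and muscle (ENSMUSG00000006221, chromosome 4 from 141420779 to 141425311), had 0.687, 0.227 and 1.93 CPM in the libraries labelled shIGF2BP1 and 1.25, 6.52 and 8.38 CPM in shNT. Replicates 2 and 3 of shNT lay above every shIGF2BP1 library, and shNT replicate 1 lay among them. The fitted change on the log2 scale was -2.51 ± 0.80 (SE), the lowest of the 55 tested members, and its interval ran from -4.28 to -0.75 (edgeR adjusted p = 0.562). These values rest on 18, 8 and 53 counts in shIGF2BP1 and 37, 222 and 277 counts in shNT, and the log2 value lay between -3.58 and -2.01 with single libraries left out. Hspb6, also called HSP20 and known from muscle (ENSMUSG00000036854, chromosome 7 from 30552178 to 30555443), had 8.32, 8.45 and 13.9 CPM in shIGF2BP1 and 15.5, 18.0 and 23.0 CPM in shNT. All shIGF2BP1 libraries were below all shNT libraries. The means were 10.2 ± 3.16 CPM in shIGF2BP1 and 18.8 ± 3.78 CPM in shNT (SD, n = 3 each). The log2 difference of -0.88 had an interval of -1.53 to -0.24 (edgeR adjusted p = 0.60). Hspb11, named with this family but a part of the ciliary transport complex, had 28.5, 30.8 and 28.0 CPM in shIGF2BP1 and 41.7, 32.6 and 33.3 CPM in shNT. Its groups did not overlap either (log2 fold change -0.30, edgeR adjusted p = 0.816). Hspb2, a muscle form, had a log2 fold change of -0.15, and 30.2% of its exon bases overlap the neighbouring gene Cryab, so its counts are uncertain. Cryab, a small heat shock protein that the name rule does not take in, went the other way, with counts uncertain for the same reason. It had 33.9, 20.7 and 37.3 CPM in shIGF2BP1 and 24.9, 21.9 and 25.3 CPM in shNT. These groups overlapped (log2 fold change 0.35, edgeR adjusted p = 0.836). Hspb8, which works with Bag3 in removing damaged proteins, had a log2 fold change of 0.11. Hspb1, the HSP27 gene and the best known inducible small heat shock protein, had 0 counts in each library. This allows at most 0.0848 to 0.119 CPM at the unscaled totals. Hspbap1, which is named for binding HSPB1 and is no chaperone, had a log2 fold change of 0.30.

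**Figure D2:**
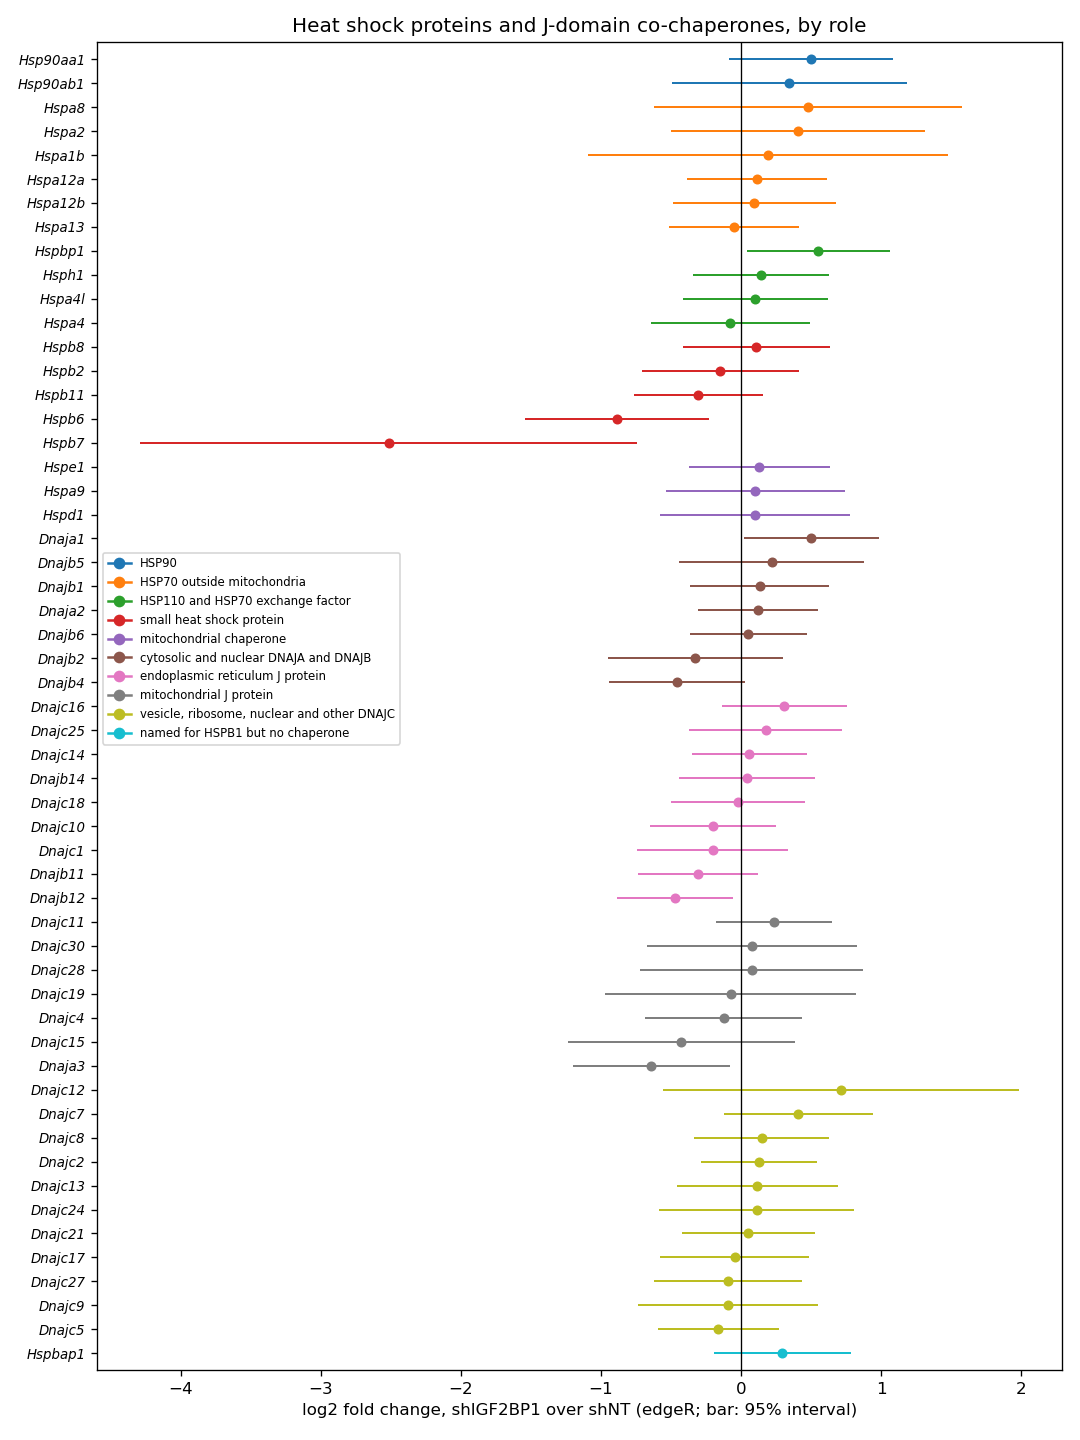
Log2 fold change (shIGF2BP1 over shNT) of the 55 tested members by role class, with 95% intervals of the edgeR fit; the vertical line marks 0. Hspb7 lies lowest at -2.51 and Dnajc12 highest at 0.71, and no member passed the adjusted threshold.

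The 3 mitochondrial chaperones had log2 fold changes between 0.10 and 0.13. Hspa9, mitochondrial HSP70, had 1912, 1918 and 2821 CPM in the libraries labelled shIGF2BP1 and 1770.5, 2373 and 2042 CPM in shNT (log2 fold change 0.10, interval -0.53 to 0.74, edgeR adjusted p = 0.961). Hspd1, or HSP60 (ENSMUSG00000025980, chromosome 1 from 55077835 to 55088243), had 1562, 1039.5 and 1922 CPM in shIGF2BP1 and 1536, 1592 and 1097 CPM in shNT. Hspe1, or HSP10 (ENSMUSG00000073676, chromosome 1 from 55088132 to 55091307), had 255, 259 and 245 CPM in shIGF2BP1 and 296, 215 and 182 CPM in shNT. The groups overlapped for all 3 genes, and the edgeR adjusted p was 0.965 for Hspd1 and 0.939 for Hspe1. Although Hspd1 and Hspe1 share the promoter printed above, their ratio per kilobase was not constant, at 3.42, 2.24 and 4.37 in shIGF2BP1 and 2.90, 4.13 and 3.37 in shNT. Hspd1 and Hspe1 overlap by 112 exon bases, and the pseudogene Hspd1-ps3 held 4897, 4095 and 6678 counts in shIGF2BP1 and 5331, 6536 and 4576 counts in shNT, so reads may be split between them. Per kilobase, Hspa9 was 1.04, 1.29 and 2.57 times Hspa8 in shIGF2BP1 and 1.22, 1.66 and 7.03 times in shNT, where the highest ratio belonged to replicate 3. The size of these ratios depends on the exon bases annotated to each gene.

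Of the cytosolic and nuclear DNAJA and DNAJB proteins, 5 of 7 were on the positive side, and the median log2 value was 0.12. Dnaja1, which serves HSC70 in protein folding and import (ENSMUSG00000028410, chromosome 4 from 40722150 to 40737149), had 150.5, 116 and 128 CPM in the libraries labelled shIGF2BP1 and 117, 81.8 and 79.4 CPM in shNT. The groups overlapped only in that the lowest shIGF2BP1 library lay at 116 CPM and the highest shNT library at 117 CPM. The means were 131 ± 17.4 CPM in shIGF2BP1 and 92.7 ± 20.9 CPM in shNT (SD, n = 3 each). The log2 difference of 0.50 had an interval of 0.027 to 0.98 (edgeR adjusted p = 0.686). Dnajb1, the inducible HSP40 and a standard reporter of HSF1, had 53.4, 45.7 and 46.8 CPM in shIGF2BP1 and 42.9, 34.99 and 55.0 CPM in shNT. Its shIGF2BP1 values lay inside the shNT range (log2 fold change 0.13, edgeR adjusted p = 0.937). Dnajb4, a related HSP40, had 87.8, 66.3 and 55.8 CPM in shIGF2BP1 and 86.8, 93.6 and 108 CPM in shNT (log2 fold change -0.46, edgeR adjusted p = 0.722). A single shIGF2BP1 library, replicate 1, reached the shNT range. Dnajb2, which is rich in neurons, had a log2 fold change of -0.32, and Dnajb5 one of 0.22. Dnaja2, the most abundant J-domain member per kilobase, had 88.4 ± 6.14 in shIGF2BP1 and 81.1 ± 3.34 in shNT (SD, n = 3 each). Dnajb6, which suppresses aggregation and carries a 3-unit word, had 54.1, 52.6 and 55.0 CPM in shIGF2BP1 and 49.7, 57.1 and 49.1 CPM in shNT.

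The 9 J proteins of the endoplasmic reticulum split into 4 positive and 5 negative values. Dnajb12, a membrane protein that takes part in degradation (ENSMUSG00000020109, chromosome 10 from 59879556 to 59899302), had 43.8, 47.7 and 49.2 CPM in the libraries labelled shIGF2BP1 and 64.9, 62.2 and 67.6 CPM in shNT. The groups were well apart, and each had a narrow spread. The means were 46.9 ± 2.75 CPM in shIGF2BP1 and 64.9 ± 2.66 CPM in shNT (SD, n = 3 each). The log2 difference of -0.47 had an interval of -0.87 to -0.064 (edgeR adjusted p = 0.679). With single libraries left out it lay between -0.51 and -0.42. Dnajb11, a partner of the luminal HSP70 protein BiP, had 75.0, 92.0 and 102 CPM in shIGF2BP1 and 114, 104 and 114 CPM in shNT (log2 fold change -0.31, edgeR adjusted p = 0.794). Dnajc10, a J protein with disulfide reductase activity, had 129.6, 91.7 and 128 CPM in shIGF2BP1 and 137, 130.4 and 133 CPM in shNT. Both had all shIGF2BP1 libraries below all shNT libraries. Dnajc16 lay the other way, with 36.5, 40.6 and 37.9 CPM in shIGF2BP1 and 27.9, 33.2 and 31.8 CPM in shNT (log2 fold change 0.31, edgeR adjusted p = 0.80).

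Mitochondrial J proteins had 3 positive and 4 negative values. Dnaja3, also called TID1, the partner of Hspa9 in the matrix (ENSMUSG00000004069, chromosome 16 from 4639989 to 4707695), had 84.8, 109.6 and 153 CPM in the libraries labelled shIGF2BP1 and 158, 160.2 and 222 CPM in shNT. The groups did not overlap, but the highest shIGF2BP1 library lay close to the lowest shNT library. The means were 116 ± 34.6 CPM in shIGF2BP1 and 180.4 ± 36.5 CPM in shNT (SD, n = 3 each). The log2 difference of -0.64 had an interval of -1.19 to -0.082 (edgeR adjusted p = 0.684). Dnajc11, a protein of cristae organisation, had 155, 159 and 182 CPM in shIGF2BP1 and 141, 129 and 152 CPM in shNT, also without overlap (log2 fold change 0.24, edgeR adjusted p = 0.853). Dnajc15, a J protein of the inner membrane, had 24.8, 23.2 and 42.8 CPM in shIGF2BP1 and 28.0, 28.3 and 65.5 CPM in shNT. Without shNT replicate 3, the fold change of -0.42 on the log2 scale turned to 0.10. Dnajc4 had a log2 fold change of -0.12. Dnajc19, part of the import motor, had 62, 63 and 58 counts in shIGF2BP1 and 70, 78 and 64 counts in shNT, fewer in each library than the 137, 98 and 111 counts in shIGF2BP1 and 143, 113 and 165 counts in shNT of its pseudogene Dnajc19-ps, so its level is uncertain.

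The other 11 tested DNAJC proteins, which serve vesicles, ribosomes, the nucleus and other tasks, had a median of 0.11 with 7 positive and 4 negative values. Dnajc12, a partner of the aromatic amino acid hydroxylases, had 8.51, 7.15 and 4.01 CPM in the libraries labelled shIGF2BP1 and 7.51, 3.32 and 1.18 CPM in shNT. Libraries of each group were spread widely and overlapped. The log2 fold change of 0.71, the highest of the tested members, had an interval of -0.55 to 1.98 (edgeR adjusted p = 0.856), and was 1.55 without shNT replicate 1 and 0.28 without shNT replicate 3. Dnajc7, which binds both HSP70 and HSP90, had 163, 233 and 152 CPM in shIGF2BP1 and 167, 109 and 136 CPM in shNT (log2 fold change 0.41, edgeR adjusted p = 0.778). Dnajc2, a ribosome-bound J protein, had a log2 fold change of 0.13, and Dnajc5, the cysteine string protein of synaptic vesicles, had -0.16. Dnajc6, the neuronal auxilin, held 18 counts in all, and Dnajb13, a protein of sperm tails, held 12, so that neither was tested.

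**Figure D3:**
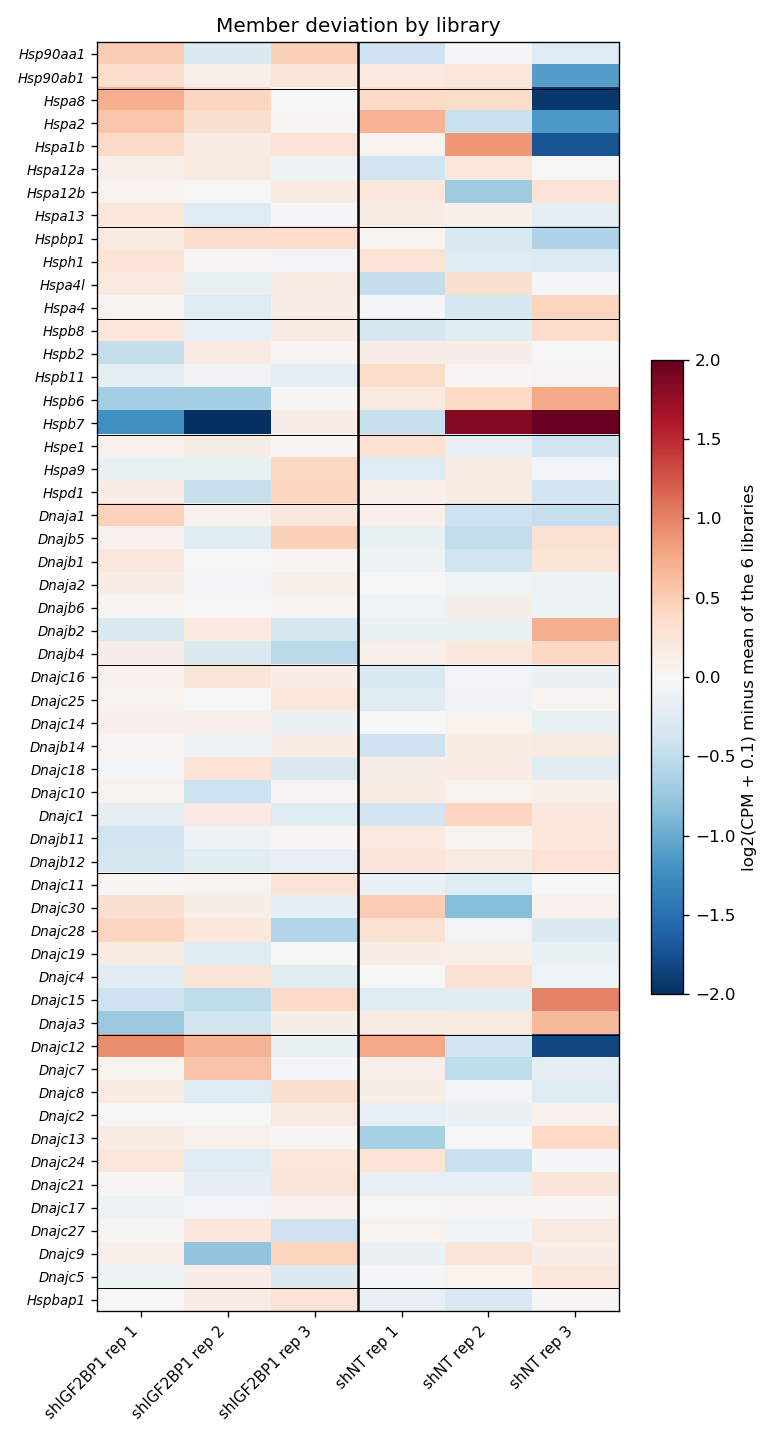
Log2 level of each tested member relative to its mean over the 6 libraries (CPM + 0.1, colours end at 2), with shIGF2BP1 libraries left of shNT libraries and rows ordered by role. Dnajc12, Hsp90ab1, Hspa1b and Hspa8 are low in shNT replicate 3, and Hspb7 varies most between libraries.

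The groups did not overlap for 9 of the 55 tested members (16.4%), against 11.6% of all genes. These were 3 higher in the libraries labelled shIGF2BP1 (Hspbp1, Dnajc16 and Dnajc11), against 6.06% of all genes in that direction, and 6 lower (Dnajb11, Dnajb12, Dnajc10, Dnaja3, Hspb11 and Hspb6), against 5.59%. Library shNT replicate 3 lay more than 2-fold below both other shNT libraries for 4 members, namely Dnajc12, Hsp90ab1, Hspa1b and Hspa8 (7.27%, against 3.64% of all genes). It lay more than 2-fold above both for 1 member, Dnajc15, against 2.55% of all genes. Library shNT replicate 1 lay that far below both others for 1 member, Hspb7 (1.82%, against 3.81% of all genes), and above both for 2, Dnajc12 and Hspa2 (3.64%, against 2.66%). Within shIGF2BP1, Hspb7 was that far below both others in replicate 2 and above both in replicate 3.

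Genes around the machinery, in 7 related lists, had 0 calls by edgeR, DESeq2 or limma-voom. At an unadjusted edgeR p under 0.05 stood 11 of the 94 tested genes, 6 higher and 5 lower. Over all genes tested the share was 7.16%, with 3.17% higher and 3.99% lower. The lists are not separate, since 9 genes stand in more than 1 of them. HSF transcription factors had a median log2 fold change of 0.13 over 5 tested genes, and Hsf1 itself had 92.2, 108 and 115 CPM in the libraries labelled shIGF2BP1 and 94.8, 97.1 and 89.1 CPM in shNT (edgeR adjusted p = 0.90). These groups overlapped. Known HSF1 targets outside the members had 10 positive and 6 negative values, with a median of 0.14. Zfand2a, a heat-inducible regulator of the proteasome, had 10.6, 10.98 and 13.6 CPM in shIGF2BP1 and 14.9, 19.6 and 42.4 CPM in shNT (log2 fold change -1.13, edgeR adjusted p = 0.573). Dedd2, a heat-inducible death-domain protein, had 13.4, 12.9 and 10.1 CPM in shIGF2BP1 and 8.02, 7.66 and 3.45 CPM in shNT (log2 fold change 0.93, edgeR adjusted p = 0.664). The groups did not overlap for either gene, and the genes lay in opposite directions. Ahsa1, the activator of the HSP90 ATPase, had 162 ± 25.5 CPM in shIGF2BP1 and 119 ± 28.6 CPM in shNT (SD, n = 3 each). Bag3, an HSF1 target and partner of Hspb8, had 1 count in each shIGF2BP1 library and 0 counts in each shNT library.

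HSP90 co-chaperones were on the positive side in 19 of 23 tested genes, with a median log2 value of 0.17 against -0.012 over all genes. The median log2 level of these genes, relative to the mean of each gene over the 6 libraries, was lowest in shNT replicate 3 at -0.26. It was 0.034 and -0.087 in the other shNT libraries and 0.13, -0.040 and 0.12 in shIGF2BP1. Nudc, a client-specific co-chaperone, had 309.8, 234 and 374 CPM in the libraries labelled shIGF2BP1 and 227, 206 and 169.7 CPM in shNT (log2 fold change 0.61, edgeR adjusted p = 0.663). Stub1, or CHIP, the ubiquitin ligase that binds HSP70 and HSP90, had 177, 185 and 179 CPM in shIGF2BP1 and 151, 128 and 102 CPM in shNT (log2 fold change 0.50, edgeR adjusted p = 0.684). Itgb1bp2, the muscle co-chaperone melusin, had 1.24 ± 0.415 CPM in shIGF2BP1 and 0.466 ± 0.24 CPM in shNT (SD, n = 3 each). In these 3 genes, named for their smallest p, each shIGF2BP1 library lay above each shNT library. Of the 23 tested co-chaperones 4 were apart in this direction, against 6.06% of all genes. In the other direction 0 were apart, against 5.59%. The HSP70 exchange factors and regulators share Stub1 with the HSP90 co-chaperones, Bag3 with the HSF1 targets, Hyou1 with the endoplasmic reticulum chaperones and Hspbp1 with the members. They had 9 positive and 3 negative values and a median of 0.30. Hyou1, an HSP110 of the endoplasmic reticulum, went against that majority, with 259.6, 355 and 432 CPM in shIGF2BP1 and 505, 534 and 553 CPM in shNT (log2 fold change -0.61, edgeR adjusted p = 0.684). The TRiC chaperonin and prefoldin, which fold actin and tubulin, had 11 positive and 5 negative values and a median of 0.12. Their lowest p belonged to the prefoldin subunit Pfdn6, with 64.2, 63.2 and 65.7 CPM in shIGF2BP1 and 47.5, 45.2 and 17.2 CPM in shNT (edgeR adjusted p = 0.684). Cct7, a TRiC subunit, had 529 ± 56.8 CPM in shIGF2BP1 and 426 ± 68.2 CPM in shNT, and Pfdn2 had 129.8 ± 3.69 CPM in shIGF2BP1 and 105 ± 31.6 CPM in shNT (SD, n = 3 each). Library shNT replicate 3 also had the lowest median log2 level for other lists. The values were -0.18 for the HSF1 targets, -0.22 for the HSP70 exchange factors and regulators, and -0.21 for TRiC and prefoldin. For the HSF1 targets shIGF2BP1 replicate 2 at -0.16 and shNT replicate 2 at -0.13 were nearly as low. The next lowest library was shNT replicate 2 at -0.081 for the exchange factors and regulators, and at -0.095 for TRiC and prefoldin.

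Mitochondrial protein quality control had 8 positive and 6 negative values and a median of 0.048. Trap1, the HSP90 of mitochondria, had 228, 229 and 260.2 CPM in the libraries labelled shIGF2BP1 and 336, 311 and 257 CPM in shNT, with overlap (log2 fold change -0.34, edgeR adjusted p = 0.789). Endoplasmic reticulum chaperones outside the members lay to the other side, with 3 positive and 13 negative values and a median of -0.27. Their median log2 level, relative to the mean of each gene over the 6 libraries, overlapped between groups. It was -0.21, -0.25 and 0.12 in shIGF2BP1 and 0.14, 0.25 and 0.0049 in shNT. In this list 4 genes had an unadjusted edgeR p under 0.05. All were lower in the libraries labelled shIGF2BP1, against 3.99% of all genes in that direction. One of the 4 is Hyou1, given above with the exchange factors. Pdia4, a disulfide isomerase, had 269, 253 and 439 CPM in shIGF2BP1 and 519, 596 and 429 CPM in shNT (log2 fold change -0.68, edgeR adjusted p = 0.682). Dnajc3, a J protein of the lumen that the rule left out, had 79.5, 77.1 and 79.6 CPM in shIGF2BP1 and 99.8, 116 and 103 CPM in shNT (log2 fold change -0.43, edgeR adjusted p = 0.686). Dnajc3 had no overlap between groups and Pdia4 had.

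**Figure D4:**
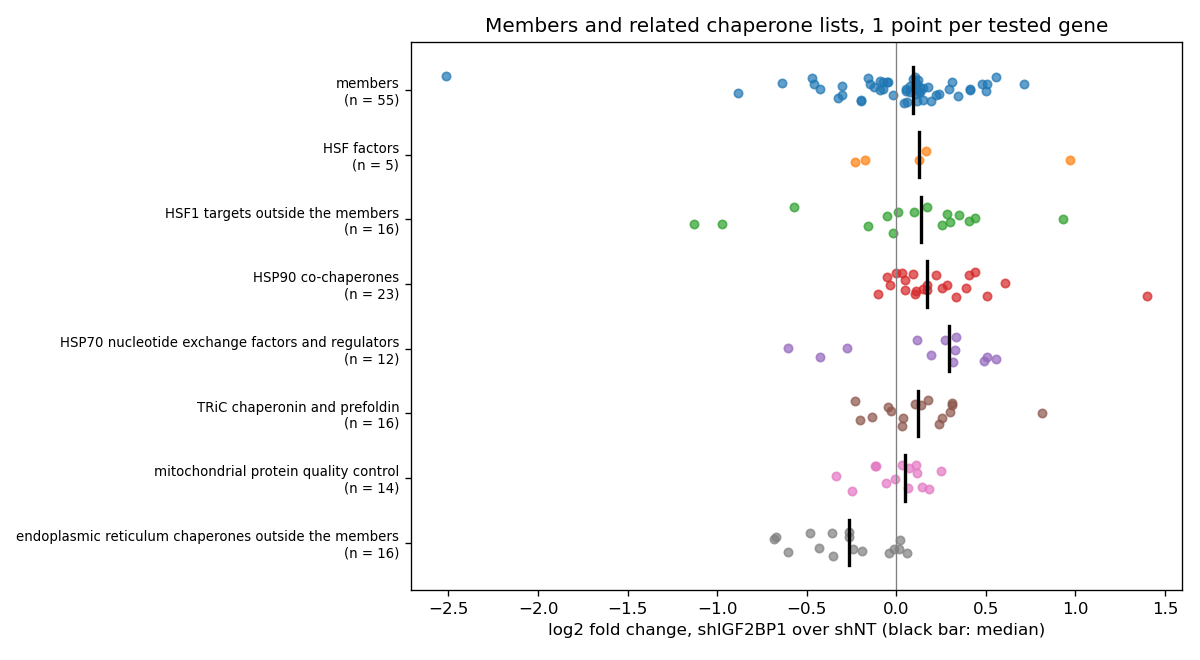
Log2 fold changes (shIGF2BP1 over shNT) of tested genes in the members and in 7 related lists; points are genes and bars are medians. Medians run from -0.27 in the endoplasmic reticulum chaperones to 0.30 in the HSP70 exchange factors and regulators, and 0 genes were called by edgeR.

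Below the limit of 10 counts stood 10 further protein-coding genes that matched the names. Dnaja4, Dnajb3, Dnajb7, Dnajb8, Dnajc5g, Hspb1, Hspb3 and Hspb9 had 0 counts in each library, and Dnajc22 and Dnajc5b had 1 count each. The members just inside the limit were Dnajb13 and Hspa1l with 12 counts, Hspa1a with 17 and Dnajc6 with 18.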

How the data were processed

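Raw read counts per gene were deposited for 6 libraries, with 1 column per library; the authors' processing, per the submitters' processing notes, used bcl2fastq, HISAT2 2.1.0 and HTSeq on build GRCm38. The sources used here do not give the annotation release, strand setting or read filters. Counts are therefore uncertain for overlapping genes (23 members share exon bases with another gene, 16 only on the opposite strand) and for near-identical copies. Gene IDs were matched to GENCODE symbols (42548 of 43629; the 1081 unmatched held 0.111% of counts), and 92 spike-in rows, all at 0 counts, were left out. Genes were filtered with edgeR's filterByExpr, scaled by TMM and tested with edgeR 4.0.16's quasi-likelihood test (R 4.3.3) over 13445 genes, with Benjamini-Hochberg adjustment and a threshold of 0.05. Intervals are 95%, and the 0-count limit of 3 counts covers counting error only. CPM are TMM-scaled, except the values given for 3 counts, which use unscaled totals. Levels per kilobase divide by all exon bases annotated to a gene over all its transcripts. DESeq2 1.42.0, limma 3.58.1 (voom), other scalings and filters, a replicate block and leaving out each library were the alternatives.

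The members and lists were chosen with earlier results of these data known. Named genes were a textbook core, up to 4 tested members per role class by smallest p, the 6 highest and 6 lowest fold changes at a mean CPM of 5 or more, and up to 3 genes per related list; members named outside this rule (Dnaja2 and Dnajb6 for level and sequence, and those at the count limit or with uncertain counts) were chosen after their values were seen. Hspa5, Hsp90b1, Dnajb9 and Dnajc3 are left out by the member rule.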

Additional observations from a re-analysis of the deposited data

How the results depend on the processing

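No member was called under any of 13 alternatives. Over all genes edgeR called 3, and called 3 with RLE size factors and with library sizes unscaled. Without the filter on low counts 138 genes were called (54 higher and 84 lower), and with a minimum mean CPM of 5 only 1. The replicate block gave 18 calls, 6 of them higher, and DESeq2 82, 39 of them higher. By limma-voom 1 gene was called, and by edgeR 1 at an adjusted p of 0.01. Leaving out single libraries gave 1 to 5. Without a filter 1 gene of the related lists was called, Zfand2a, lower in the libraries labelled shIGF2BP1.

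The median log2 fold change of the members, 0.094, was 0.17 with library size only, where the median of all genes moved to 0.068 as well, and 0.024 to 0.13 without single libraries. Members with a negative value then numbered 17 to 25, and members at an unadjusted p under 0.05 numbered 2 (3.64%, against 3.16% of all genes) without shIGF2BP1 replicate 1 to 10 (18.2%, against 13.3%) without shNT replicate 1. Members whose groups did not overlap, an alternative chosen after seeing the data, numbered 11 to 19, or 20.0% to 34.5% of those tested, against 15.04% to 30.1% of all genes. Without shNT replicate 2 their share was 21.8%, below the 24.0% of all genes. The median of mitochondrial quality control was 0.13 with library size only and -0.047 to 0.074 without single libraries. That of HSF factors was -0.0065 at mean CPM 5 and 0.014 to 0.17 without single libraries. Without single libraries the median ran from 0.12 to 0.27 for HSP90 co-chaperones and from 0.25 to 0.29 for HSP70 exchange factors and regulators. It ran from 0.075 to 0.24 for TRiC and prefoldin and from 0.060 to 0.26 for HSF1 targets outside the members. For endoplasmic reticulum chaperones outside the members it ran from -0.43 to -0.16.

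The replicate block left the median of the members at 0.090 and called 0 members. Deviations of libraries with the same number correlated at 0.19, -0.09 and 0.28. Unlike numbers gave values between -0.37 and 0.22, so the numbers were not taken to pair the samples.

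Of 36 named members 24 kept their sign, and 12 changed it only when a library was left out. Their log2 fold changes then ran from -0.26 to 0.023 for Hspb2, -0.24 to 0.17 for Hspa4, -0.11 to 0.22 for Hspa9, -0.12 to 0.32 for Hspd1, -0.036 to 0.26 for Hspa12a, -0.075 to 0.31 for Hspa4l and -0.012 to 0.32 for Dnajb1. They ran from -0.16 to 0.26 for Hspa12b, -0.50 to 0.025 for Dnajb2, -0.76 to 0.10 for Dnajc15, -0.26 to 0.88 for Hspa1b and -0.014 to 0.35 for Hspe1. The cause was not tested. With 3 libraries a group and a common biological coefficient of variation of 0.29, small differences were not detectable.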
